A study of Mus musculus with 18 samples.

Results

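Liver RNA was measured for 10 genes of the NRF2 antioxidant defence, which were chosen by name: the regulators Nfe2l2 and Keap1, the NRF2 target genes Nqo1, Gclc, Gclm, Hmox1, Txnrd1 and Srxn1, and the peroxide-removing enzymes Gpx1 and Cat. All 10 were found among the 25266 gene symbols of the deposited tables, and all 10 passed the filter on low values that kept 11090 genes for testing. Male C57BL/6 mice received a control diet (CD, 10% of calories as fat) or a high fat diet (HFD, 32.5% of calories as fat) for 16 weeks from 8 weeks of age. FF mice carry floxed Ppp6r3, the gene of SAPS3, a regulatory subunit of protein phosphatase 6, and no Cre recombinase. LKO mice carry the same floxed alleles together with Cre under the albumin promoter (Alb-Cre), which is active in hepatocytes, so other liver cells keep the gene. The groups were 4 FF CD mice, 4 LKO CD mice, 5 FF HFD mice and 5 LKO HFD mice, 18 in all. The floxed alleles are shared by all 4 groups, and no group carries Cre without them.

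NRF2, encoded by Nfe2l2, is a transcription factor that raises the transcription of enzymes which make glutathione, regenerate thioredoxin, reduce quinones and break down haem. KEAP1 binds NRF2 in the cytoplasm and directs it to degradation, and oxidants or electrophiles that modify KEAP1 let NRF2 reach the nucleus, so NRF2 activity is largely set at the protein level, which RNA does not measure. In the nucleus NRF2 pairs with small MAF proteins and binds the antioxidant response element. The liver depends on these enzymes to handle drugs, bile pigments and the peroxides formed when fatty acids are oxidised.

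The values are RPKM, the reads of a gene scaled by its length and by the depth of the library, so that levels of different genes can be set side by side. Libraries held an estimated 23.3 to 37.0 M reads, with group medians of 25.2 (FF CD), 27.1 (LKO CD), 26.3 (FF HFD) and 24.8 M (LKO HFD). Pearson's r across genes between mice of the same group was 0.974 to 0.993 over 32 pairs, and no 2 tables were identical. The genotype labels were checked with Ppp6r3, which was 9.34 ± 1.14 RPKM in FF CD mice (SD, n = 4), 3.99 ± 0.0823 in LKO CD mice (n = 4), 8.23 ± 0.468 in FF HFD mice (n = 5) and 4.60 ± 0.271 in LKO HFD mice (n = 5), with no overlap between the genotypes on either diet. All 7 hepatocyte markers were present, summing to 33999 to 51423 RPKM over the 18 mice. On HFD, 2 of the 7 were called lower in FF mice (Cps1, log2 difference -1.24, and Apoa1, -0.72) and 1 in LKO mice (Ttr, -0.40). Of all tested genes 20.6% were called in FF mice, 15.8% as higher, and 4.05% in LKO mice, 3.44% as higher. Apoa1 was higher in LKO HFD than FF HFD mice (0.64, limma adjusted p = 0.0169), where 4.20% of all tested genes were called. Ttr was called in the difference of the diet effects (-0.51, limma adjusted p = 0.0412), as were 2.97% of all tested genes.

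The genes lie on 5 chromosomes of GRCm38 (mm10). By GENCODE, Nqo1 spans chr8:107388225-107403206 (minus strand) and Hmox1 chr8:75093621-75100589 (plus strand). Srxn1 lies at chr2:152105516-152111376 (plus strand), Nfe2l2 at chr2:75675513-75704641 (minus strand) and Cat at chr2:103453849-103485160 (minus strand). Chromosome 9 holds Gclc at chr9:77754535-77794485 (plus strand), Keap1 at chr9:21229730-21239361 (minus strand) and Gpx1 at chr9:108338903-108340343 (plus strand). Gclm spans chr3:122245557-122270732 (plus strand) and Txnrd1 chr10:82833951-82897712 (plus strand). Keap1 and Gclm overlap exons of an antisense or noncoding transcript on the other strand (Gm16754 and Gm17494), and since strand use in the counting is not given in the sources used here, reads from both strands cannot be told apart at those exons.

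RefSeq promoter windows of GRCm38.p6, each 250 bases before to 50 bases after a start site, were matched by symbol for 8 of the 10 genes, in 10 windows, and were not matched for Gclc and Hmox1. They were searched on both strands for the core of the antioxidant response element, TGACNNNGC, and for the related AP-1-like motif TGANTCA, and on the coding strand for the TATA motif TATAAA. Of all 32851 windows, 12.4% held the core and 7.81% the AP-1-like motif. The TATA motif was in 13.6%, counted on either strand, so this share is not that of the coding strand alone. The core was found in 4 of the 8 genes (Nfe2l2, Gclm, Txnrd1 and Srxn1), the AP-1-like motif in Srxn1 alone and the TATA motif in Nqo1 alone. These counts are per gene and the shares above per window, so they are not like for like. Txnrd1 had 3 windows and held the core only in the second. The upstream bases of Nqo1 and Srxn1 are shown because these were the genes with the largest differences between groups, and the stretches of Txnrd1, Gclm and Nfe2l2 because they hold a core match. Capitals mark the motif found, in the order given below for each gene. Nqo1 (chr8:107403206-107403455, minus strand) has TATAAA starting 29 bases before the start site. No core match was found in its window, but bases outside the windows were not searched for any gene. Srxn1 (chr2:152105274-152105523, plus strand) has TGAGTCA starting 102 and 45 bases before the start site, and its core match, which is read on the opposite strand, begins 28 bases after the start site and is not shown. Txnrd1 (chr10:82859088-82859148, plus strand, the second of its 3 windows), Gclm (chr3:122245397-122245457, plus strand) and Nfe2l2 (chr2:75704869-75704913, minus strand) have the core, read on the opposite strand in Txnrd1 and Gclm. The match in Txnrd1 is extended by A after the core, as in 3.04% of all windows.
Nqo1: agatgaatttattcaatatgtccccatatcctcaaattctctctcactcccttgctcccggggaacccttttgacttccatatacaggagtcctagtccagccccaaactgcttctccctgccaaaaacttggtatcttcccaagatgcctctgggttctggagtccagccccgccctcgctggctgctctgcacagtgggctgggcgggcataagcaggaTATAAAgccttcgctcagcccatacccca
Srxn1: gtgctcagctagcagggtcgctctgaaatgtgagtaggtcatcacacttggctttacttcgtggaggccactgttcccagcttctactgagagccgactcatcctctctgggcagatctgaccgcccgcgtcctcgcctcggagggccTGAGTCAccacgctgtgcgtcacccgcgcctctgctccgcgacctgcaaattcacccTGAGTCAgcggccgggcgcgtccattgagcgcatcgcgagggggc
Txnrd1: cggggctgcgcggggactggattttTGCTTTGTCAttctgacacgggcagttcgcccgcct
Gclm: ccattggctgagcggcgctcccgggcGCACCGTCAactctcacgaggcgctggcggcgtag
Nfe2l2: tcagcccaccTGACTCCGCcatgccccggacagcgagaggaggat

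The 10 genes spanned a wide range of levels. Cat, which encodes the peroxisomal enzyme catalase, was the most abundant at a mean of 1002 RPKM over 18 mice, and Gpx1, a cytosolic glutathione peroxidase, followed at 698.9 RPKM. By mean level Cat lay above 99.6% of the tested genes and Gpx1 above 99.4%. Gclc (58.95 RPKM), Gclm (42.57), Txnrd1 (26.59), Nfe2l2 (23.51) and Srxn1 (13.14) came next. Keap1 (7.728) and Hmox1 (7.632) could not be ordered, since Keap1 was above Hmox1 in 9 of 18 mice, and Txnrd1 was above Nfe2l2 in only 13. Nqo1 was the least abundant at 3.979 RPKM and varied most, with a highest mouse 6.52 times the lowest, against 4.21 times for Hmox1, 3.25 for Srxn1, 2.89 for Gclc and 1.38 for Cat. An estimated 47 to 421 reads per mouse lay behind the values of Nqo1 and 142 to 673 behind those of Hmox1, and at least 432 behind each of the others.

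**Figure D1:**
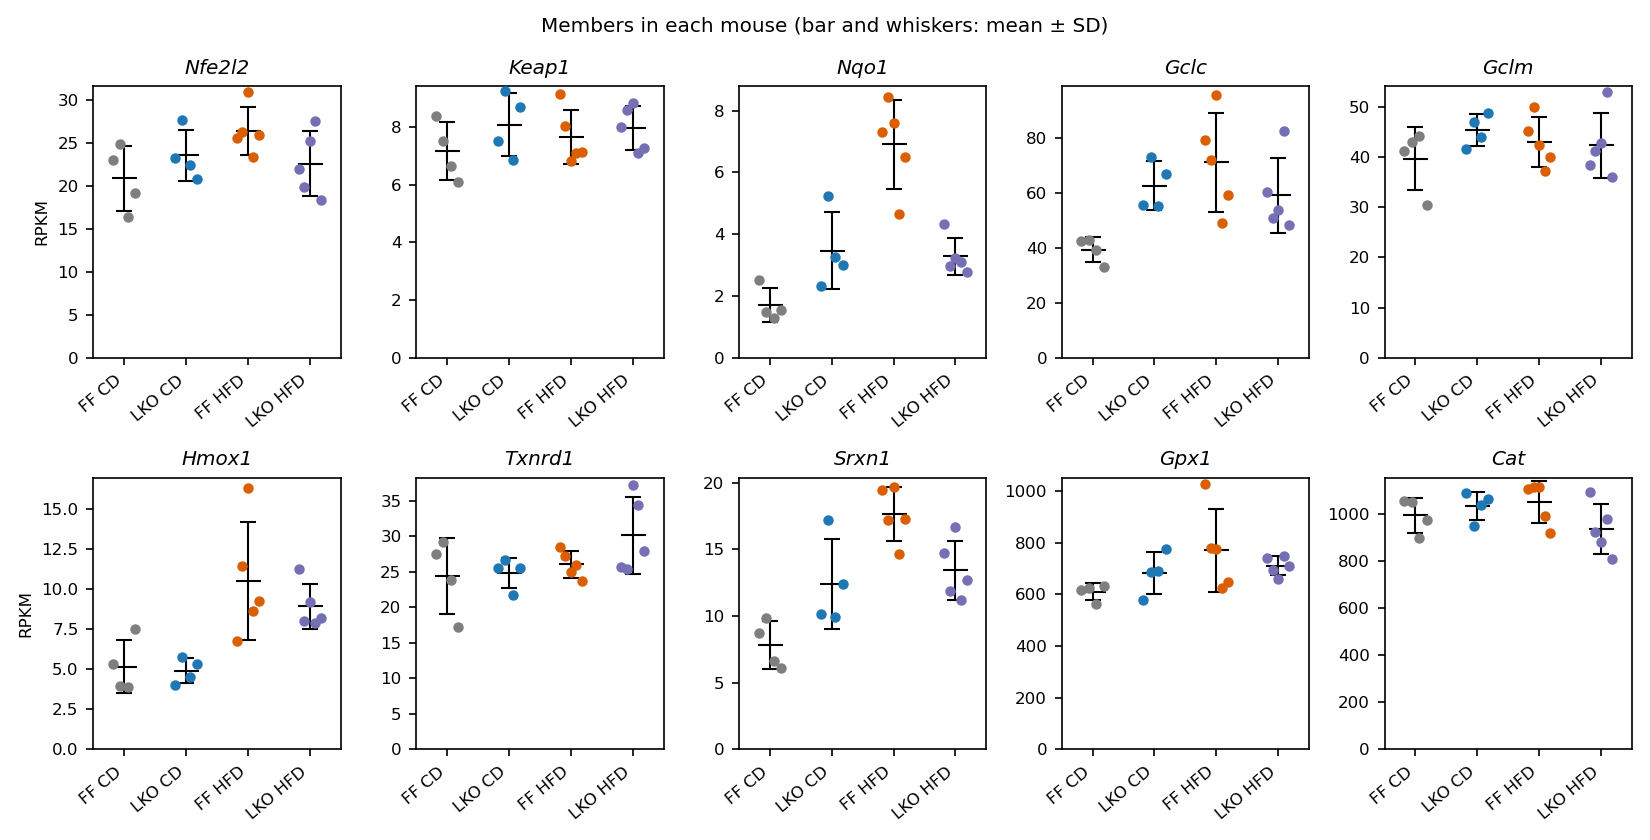
RPKM of the 10 genes in each mouse, 1 panel per gene with the axis starting at 0, where points are mice coloured by group (FF CD, LKO CD, FF HFD, LKO HFD) and the bar and whiskers give the mean ± SD. Nqo1 and Srxn1 were high in all 5 FF HFD mice and low in all 4 FF CD mice. Hmox1 had a higher mean on HFD in both genotypes, with overlap between the diets in FF mice.

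Differences between groups were tested on log2(RPKM + 1) in a single limma fit of all 18 mice and are given as log2 differences, which understate the change of low genes, with the standard error (SE). A gene was called changed at an adjusted p under 0.05 (Benjamini-Hochberg over the 11090 genes, two-sided), and again with a fold change above 1.5 in addition, and both rules gave the same number of the 10 genes in each comparison. For single genes an exact permutation test, also two-sided, is given beside limma. With groups of this size its p cannot go below 0.0286 for 4 mice against 4, 0.0159 for 4 against 5 or 0.00794 for 5 against 5.

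The regulators were not called in any comparison. Nfe2l2 was at 23.1, 24.9, 16.4 and 19.2 RPKM in the FF CD mice and at 25.7, 26.3, 30.9, 23.4 and 25.9 RPKM in the FF HFD mice. In LKO mice it was at 23.3, 27.7, 22.5 and 20.8 RPKM on CD and at 22.0, 19.9, 25.3, 27.6 and 18.4 RPKM on HFD. All groups overlapped, although 4 of the 5 FF HFD mice lay above every FF CD mouse. The log2 difference between FF HFD and FF CD mice was 0.34 (SE 0.13, limma adjusted p = 0.0759, exact permutation p = 0.0317). Between LKO HFD and LKO CD mice it was -0.06 (95% interval -0.34 to 0.21). The diet effect in LKO minus that in FF mice was -0.40 (95% interval -0.79 to -0.01) and did not pass (limma adjusted p = 0.289). Keap1, the inhibitor of NRF2, had group means between 7.16 and 8.09 RPKM and differed by no more than 0.16 on the log2 scale in the 4 pairwise comparisons, with all groups overlapping.

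Nqo1, which encodes the quinone reductase that serves as a standard readout of NRF2, differed most between groups. It was at 2.51, 1.49, 1.29 and 1.55 RPKM in the FF CD mice and at 7.32, 8.43, 7.59, 4.67 and 6.51 RPKM in the FF HFD mice, so that every HFD mouse lay above every CD mouse. The means differed 4.04-fold, by 1.54 on the log2 scale (SE 0.17, limma adjusted p = 1.29e-05, exact permutation p = 0.0159). In LKO mice the values were 2.33, 5.24, 3.27 and 3.01 RPKM on CD and 4.33, 2.98, 3.22, 3.10 and 2.77 RPKM on HFD, and the groups lay across each other. The log2 difference was -0.03 with a 95% interval from -0.40 to 0.33 (limma adjusted p = 0.939), which does not reach the lower bound of 1.18 of the FF mice. On HFD, all 5 LKO mice were below all 5 FF mice, at 0.475 times their mean (log2 difference -0.87, SE 0.16, limma adjusted p = 0.0051, exact permutation p = 0.00794). On CD the mean of LKO mice was 2.02 times that of FF mice, but 1 LKO mouse lay below the highest FF mouse and the difference of 0.70 (SE 0.18) did not pass (limma adjusted p = 0.149, exact permutation p = 0.0571). The diet effect in LKO mice minus that in FF mice was -1.57 (SE 0.25, limma adjusted p = 0.00156). Of 7 stellate cell and fibroblast markers, only the collagens Col1a1 and Col3a1 were called in any comparison. Both were called in the same 3 comparisons and directions as Nqo1. Their log2 differences were 1.16 and 1.21 between FF HFD and FF CD mice, -1.15 and -1.24 between LKO HFD and FF HFD mice, and -1.51 and -1.66 between the diet effects. Pex11a, Fth1, Tkt and Glrx of the pathway lists below had the same 3 calls and directions. The share of all tested genes with these 3 calls was not counted. The 7 stellate cell and fibroblast markers summed to 59.69 to 86.16 RPKM in FF CD, 59.64 to 102.6 in LKO CD, 75.05 to 116.5 in FF HFD and 52.75 to 104.2 in LKO HFD mice, none at 0 in all mice. Their part in the differences of Nqo1 and Srxn1 was not tested.

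Srxn1, encoding the sulfiredoxin that repairs overoxidised peroxiredoxins, had the next largest difference. The FF CD mice were at 8.74, 9.88, 6.64 and 6.07 RPKM, and the FF HFD mice at 19.4, 17.2, 19.7, 14.7 and 17.3 RPKM, again without overlap. The means differed 2.26-fold (log2 difference 1.10, SE 0.16, limma adjusted p = 0.000144). The LKO mice were at 10.1, 17.2, 9.96 and 12.4 RPKM on CD and at 14.7, 11.9, 16.7, 11.2 and 12.7 RPKM on HFD, where the highest CD mouse exceeded every HFD mouse. The log2 difference of LKO mice was 0.12 (95% interval -0.21 to 0.46, limma adjusted p = 0.692), and the diet effect in LKO minus that in FF mice was -0.97 (SE 0.22, limma adjusted p = 0.0243). That last call was lost without FF CD mouse 3, LKO CD mouse 2 or LKO CD mouse 4, among other settings, with an adjusted p of up to 0.0696 (limma). LKO CD mice all lay above FF CD mice (1.59-fold, exact permutation p = 0.0286), though the log2 difference of 0.59 did not pass over all genes (limma adjusted p = 0.188). Between LKO HFD and FF HFD mice the log2 difference was -0.38 (limma adjusted p = 0.172, exact permutation p = 0.0238) with overlapping groups. Txnrd1, the cytosolic thioredoxin reductase, ran from 17.2 to 37.3 RPKM with overlap in every comparison, and its largest difference was 0.25 between LKO HFD and LKO CD mice (95% interval -0.04 to 0.54, limma adjusted p = 0.289).

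Gclc and Gclm encode the catalytic and the modifier subunit of glutamate-cysteine ligase, which takes the rate-limiting step of glutathione synthesis. Gclc was at 42.5, 43.0, 39.2 and 33.2 RPKM in FF CD mice and at 79.5, 72.1, 95.9, 49.2 and 59.2 RPKM in FF HFD mice, all above the CD mice. The means differed 1.80-fold (log2 difference 0.81, SE 0.18, limma adjusted p = 0.00362, exact permutation p = 0.0159). LKO CD mice, at 55.5, 73.2, 55.3 and 66.9 RPKM, also lay wholly above FF CD mice, 1.59-fold by the means, with a log2 difference of 0.65 that did not pass (SE 0.19, limma adjusted p = 0.199, exact permutation p = 0.0286). On HFD the LKO mice were at 60.4, 51.2, 54.0, 82.5 and 48.3 RPKM, and overlapped both LKO CD and FF HFD mice. The diet effect in LKO minus that in FF mice was -0.90 (SE 0.25) and did not pass (limma adjusted p = 0.0567). Gclm was called in no comparison. Its values ran from 30.5 to 53.0 RPKM, its group means from 39.69 to 45.33 RPKM, and no comparison had groups that did not overlap, with a log2 difference of 0.12 between FF HFD and FF CD mice (95% interval -0.14 to 0.37).

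Hmox1, the inducible haem oxygenase, was the only gene of the 10 called on HFD in both genotypes. In FF mice it was at 5.34, 3.98, 3.88 and 7.48 RPKM on CD and at 6.75, 11.5, 16.3, 8.62 and 9.28 RPKM on HFD, where the lowest HFD mouse lay below the highest CD mouse. The means differed 2.03-fold (log2 difference 0.88, SE 0.20, limma adjusted p = 0.00413, exact permutation p = 0.0317). In LKO mice it was at 4.03, 5.79, 4.54 and 5.31 RPKM on CD and at 11.2, 8.04, 9.18, 7.92 and 8.22 RPKM on HFD, without overlap. The means differed 1.81-fold (log2 difference 0.74, SE 0.20, limma adjusted p = 0.0411, exact permutation p = 0.0159). The call in LKO mice held in only 11 of 27 alternative settings and was lost on leaving out any 1 of the 4 LKO CD mice or 5 LKO HFD mice, or FF HFD mouse 2 (highest limma adjusted p = 0.131). The diet effects of the genotypes differed by -0.14 (95% interval -0.72 to 0.45). Hmox1 is expressed in liver macrophages as well as hepatocytes. The 12 macrophage and Kupffer cell markers summed to 82.83 to 112.1 RPKM in FF CD, 74.01 to 113.4 in LKO CD, 95.83 to 205.4 in FF HFD and 106.1 to 190.2 in LKO HFD mice, none at 0 in all mice. Called higher on HFD were 4 of 12 (Adgre1, Vsig4, Csf1r and C1qb) in FF mice and 1 of 12 (Clec4f) in LKO mice. Of all tested genes 15.8% in FF and 3.44% in LKO mice were called and higher. At an unadjusted p under 0.05 (limma) there were 9 of 12 in FF and 10 of 12 in LKO mice. The median log2 differences of the 12 were 0.59 in FF and 0.55 in LKO mice. All tested genes were not counted at that unadjusted threshold. The 7 sinusoidal endothelial markers summed to 15.31 to 32.86 RPKM in FF CD and 40.97 to 67.61 in FF HFD mice, with 5 of 7 called higher, and to 12.38 to 34.81 in LKO CD and 32.32 to 43.99 in LKO HFD mice, with 0 of 7 called by limma and 5 at an unadjusted p under 0.05. Their part in the difference of Hmox1 was not tested, and in whole liver a change in the number of such cells and in the RNA per cell cannot be told apart.

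The abundant peroxide-removing enzymes were called in no comparison. Gpx1 ranged from 561 to 633 RPKM in FF CD, 580 to 777 in LKO CD, 624 to 1029 in FF HFD and 659 to 749 in LKO HFD mice. Its log2 difference between FF HFD and FF CD mice was 0.32 (SE 0.13), with overlapping groups (limma adjusted p = 0.082, exact permutation p = 0.0476). Cat ranged from 896 to 1053 RPKM in FF CD, 950 to 1087 in LKO CD, 920 to 1115 in FF HFD and 809 to 1090 in LKO HFD mice. No pairwise log2 difference of Cat was larger than 0.17 in size, which was that of LKO HFD mice below FF HFD mice (95% interval -0.37 to 0.03).

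**Figure D2:**
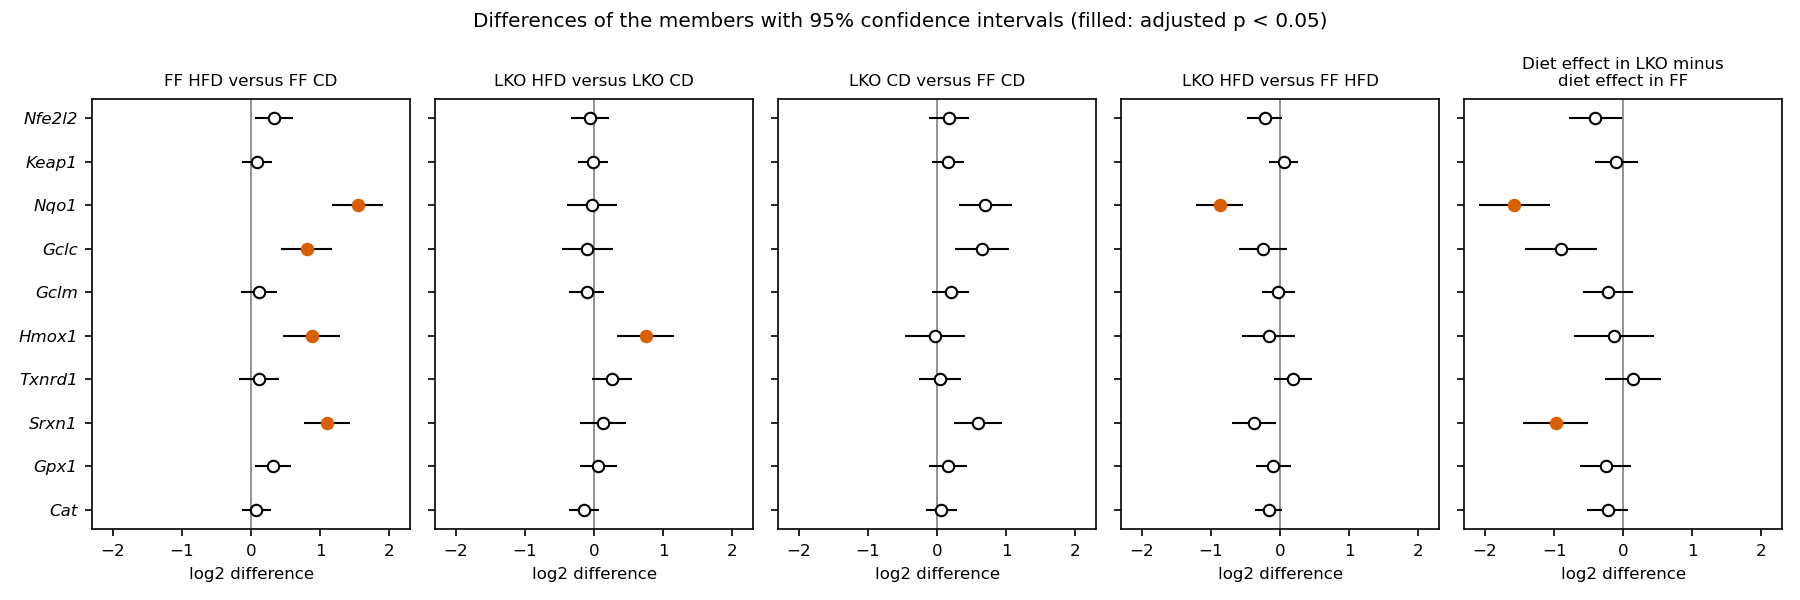
Log2 differences of the 10 genes in 4 pairwise comparisons and in the difference of the diet effects, where lines are 95% confidence intervals of the limma fit and filled points passed an adjusted p of 0.05. Nqo1 is filled in 3 panels, to the right of 0 for FF HFD versus FF CD and to the left for LKO HFD versus FF HFD and for the difference of the diet effects.

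In FF mice, HFD was accompanied by a rise in Nqo1, Srxn1, Gclc and Hmox1, 4 of the 10 genes, all upward. Of all tested genes 20.6% were called in this comparison, 6.60% with a fold change above 1.5 as well, and 15.8% were called and higher on HFD. Groups did not overlap in 3 of the 10 genes (Nqo1, Srxn1 and Gclc), against 18.3% of all tested genes. The log2 differences of all 10 were above 0 with a median of 0.33, against 0.0714 and 63.2% above 0 over all tested genes, though those of Keap1 and Cat were just below 0 when each mouse was centred on its median. Higher genes made up 76.8% of those called, and 47.2% after quantile normalization or 47.7% after centring. The 4 genes were called in all 27 alternative settings, and rescaling to the same summed RPKM added Nfe2l2 and Gpx1 to them.

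In LKO mice, only Hmox1 was called on HFD, 1 of the 10 genes, against 4.05% of all tested genes, 1.27% with the fold change and 3.44% called and higher. Hmox1 was also the only gene whose groups did not overlap, against 9.04% of all genes. The log2 differences had a median of -0.02, against 0.0670 over all tested genes. They were above 0 for 4 and below for 6, while 65.8% of all tested genes were above 0. With mice rescaled to the same summed RPKM, 5 were above 0. Of all genes called, 85.1% were higher, against 33.0% after centring and 49.6% after quantile normalization.

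Between LKO CD and FF CD mice, limma called 0 of the 10 genes, against 0.234% of all tested genes. An unadjusted p under 0.05 (limma) was reached by 3 (Nqo1, Gclc and Srxn1), and the share of all genes at that threshold was not counted. Groups did not overlap for 2 (Gclc and Srxn1), against 5.07% of all genes. This comparison shares its FF CD mice with that of FF HFD and FF CD mice. On HFD, Nqo1 alone was called lower in LKO mice, 1 of 10, against 4.20% of all tested genes and 2.07% with the fold change, and it alone did not overlap, against 4.67%. The log2 differences on HFD had a median of -0.17, against 0.0299 over all genes. They were below 0 for 8 of 10, while 57.4% of all tested genes were above 0. The difference of the diet effects was called for 2 of the 10 genes (Nqo1 and Srxn1), against 2.97% of all tested genes. It was below 0 for 9 of 10, with Txnrd1 as the exception at 0.14, while 48.7% of all tested genes were above 0.

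**Figure D3:**
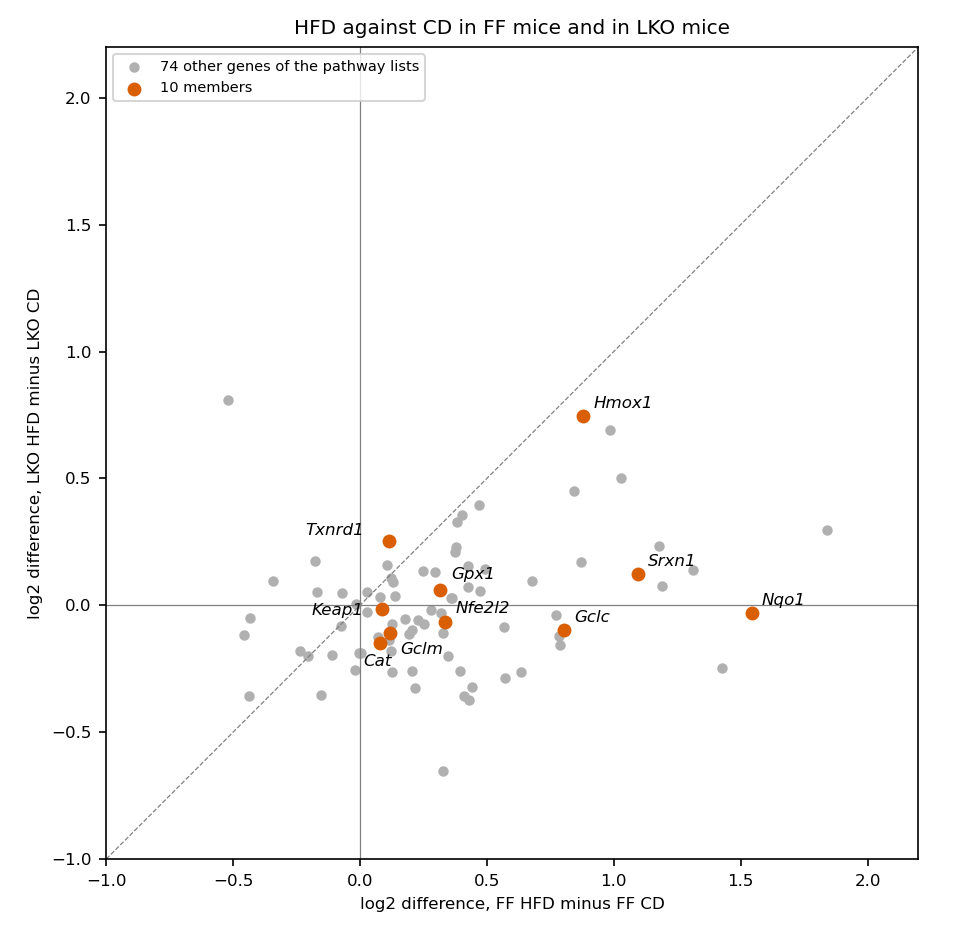
Log2 difference between HFD and CD in FF mice (horizontal) and in LKO mice (vertical) for the 10 genes (orange, named) and 74 other tested genes of the pathway lists (grey), with a dashed line where both are equal. Nqo1, Srxn1 and Gclc lie far to the right near 0 on the vertical axis, and Hmox1 lies near the dashed line.

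Other genes of the pathway were counted in 9 lists holding 74 tested genes. In FF mice 21 of them rose and 1 fell on HFD, 29.7% called against 20.6% of all tested genes. In LKO mice 2 rose, among them Txnip, and 0 fell, 2.70% against 4.05%. Between genotypes on CD limma called 0, against 0.234% of all genes. On that diet 19 had an unadjusted p under 0.05 (limma), and the share of all genes at that threshold was not counted. On HFD 1 was higher and 7 were lower in LKO mice, 10.8% against 4.20%. The diet effect was lower in LKO than FF mice for 11 of the 74 and higher for 0, 14.9% against 2.97%. Regulators and cofactors had 2 of 10 called in FF mice, a share near that of all genes and both higher: Nfe2l1, a NRF2-related factor, went from 14.18 ± 2.746 to 26.08 ± 3.426 RPKM (log2 difference 0.84, limma adjusted p = 0.000479), and Mafk, a small MAF partner, from 3.354 ± 0.5879 to 4.715 ± 0.3131 RPKM (SD, n = 4 and 5, limma adjusted p = 0.0111). The list had no call in another comparison, with 0 to 2 of 10 at an unadjusted p under 0.05 (limma). Of 6 tested genes of glutathione synthesis and recycling, 3 rose in FF mice. These were Ggct (log2 difference 0.68), Glrx (0.41) and Oplah (0.47), of which Glrx, a glutaredoxin, was also lower in LKO HFD than FF HFD mice (-0.55, limma adjusted p = 0.0245). In the thioredoxin and peroxiredoxin list Txnip, the inhibitor of thioredoxin, rose in FF mice (0.98) and in LKO mice (0.69, limma adjusted p = 0.0499), and the 9 others did not pass. Among 7 glutathione peroxidases and superoxide dismutases, Gpx4, which reduces lipid peroxides, rose in FF mice from 66.15 ± 7.140 to 115.6 ± 18.87 RPKM (0.79, limma adjusted p = 0.00183) and had a lower diet effect in LKO mice (-0.94, limma adjusted p = 0.0266), and mitochondrial Sod2 rose by 0.28.

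NADPH supplies the reducing power for NQO1, glutathione reductase and thioredoxin reductase. Of 6 genes in that list, 3 were lower in LKO HFD than in FF HFD mice: Tkt, of the pentose phosphate pathway, at 30.04 ± 2.713 against 45.04 ± 4.003 RPKM (SD, n = 5 and 5, log2 difference -0.57, limma adjusted p = 0.00117), Pgd (-0.74, limma adjusted p = 0.0143) and malic enzyme Me1 (-0.83, limma adjusted p = 0.0401). In FF mice on HFD, Tkt was called higher (0.39, limma adjusted p = 0.00665), while Pgd differed by 0.44 (limma adjusted p = 0.0760) and Me1 by 0.33 (limma adjusted p = 0.345) without passing. The iron and haem list had 2 of 5 called higher in FF mice, the ferritin heavy chain Fth1 (523.9 ± 63.11 to 901.8 ± 95.03 RPKM, 0.78) and the biliverdin reductase Blvrb (0.35). Fth1 was lower in LKO HFD than FF HFD mice (-0.49, limma adjusted p = 0.0143), and its diet effects differed (-0.90, limma adjusted p = 0.00368). Detoxifying oxidoreductases and hydrolases had 4 of 7 called higher in FF mice, among them the epoxide hydrolase Ephx1 (1.31) and the aldehyde oxidase Aox1 (1.18), both with a lower diet effect in LKO mice (-1.18 and -0.94). Osgin1 went the other way, at 57.27 ± 27.87 RPKM in LKO HFD against 20.99 ± 11.75 in FF HFD mice (1.38, limma adjusted p = 0.0203). Of 11 peroxisomal genes 5 rose in FF mice, and the largest differences were those of Pex11a, a protein of peroxisome division, at 1.84, the thiolase Acaa1b at 1.43 and the bifunctional enzyme Ehhadh at 1.19, while Cat of the same organelle differed by 0.08. The diet effects of these 3 genes were lower in LKO mice (LKO minus FF -1.54, -1.68 and -1.11 in the same order, limma adjusted p = 0.00218, 0.00968 and 0.0159), and 1 further gene of the list was called in that comparison. Pex11a was also lower in LKO HFD than FF HFD mice (-0.86, limma adjusted p = 0.00747). Of 12 other selenoproteins, Selenop rose (0.47) and Selenos fell (-0.46) in FF mice on HFD, and Dio1 was lower in LKO HFD than in FF HFD mice (-0.53, limma adjusted p = 0.0461). The calls of Glrx, Oplah and Blvrb in FF mice, Txnip in LKO mice, Me1 and Dio1 between genotypes on HFD, and Glrx, Ephx1 and Aox1 in the difference of the diet effects were lost under at least 10 of the 26 or 27 alternative settings. The call of Osgin1 was lost under 6 of 27, among them leaving out FF HFD mouse 2 or 5 or LKO HFD mouse 3 or 4 (highest limma adjusted p = 0.0748). That of Gpx4 in the difference of the diet effects was lost under 7 of 26 (highest limma adjusted p = 0.0747), with FF CD mouse 3, LKO CD mouse 2 or 4, FF HFD mouse 2 or LKO HFD mouse 3 left out among them. That of Glrx between genotypes on HFD was lost under 5 of 27, without FF HFD mouse 2, 4 or 5 or LKO HFD mouse 3 or 4 (highest limma adjusted p = 0.0732). The calls of Mafk and Sod2 in FF mice were lost without FF CD mouse 3, that of Sod2 also in a fit of the compared groups alone, and that of Fth1 on HFD without FF HFD mouse 2 (limma adjusted p = 0.0507).

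Variation between mice of the same group was compared for all 45 pairs of the 10 genes after the group means were removed, with 100000 permutations of mice within groups. After adjustment 0 pairs passed by Pearson's r or Spearman's rho, while 12 had an unadjusted p under 0.05 by Pearson's r. Pearson's r was above 0 for 42 pairs with a median of 0.384, against a median of 0.13 and 63.5% above 0 over all pairs of tested genes. Gclc and Gclm had an r of 0.701 (permutation p = 0.0031, adjusted p = 0.0697) and a rho of 0.742, and r was 0.552 without the 2 mice farthest from the median of Gclc. Nfe2l2 and Gclc had an r of 0.666 (permutation p = 0.00196, adjusted p = 0.0697) and a rho of 0.697, with 0.671 without the 2 farthest mice. Keap1 and Srxn1 had the highest r at 0.709 (permutation p = 0.00599, adjusted p = 0.0898). As many as 3.23% of all gene pairs reached an r as high as that of Keap1 and Srxn1, and 4.83% one as high as that of Nfe2l2 and Gclc. Leaving out 1 mouse at a time gave 0 to 2 pairs past the threshold.

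**Figure D4:**
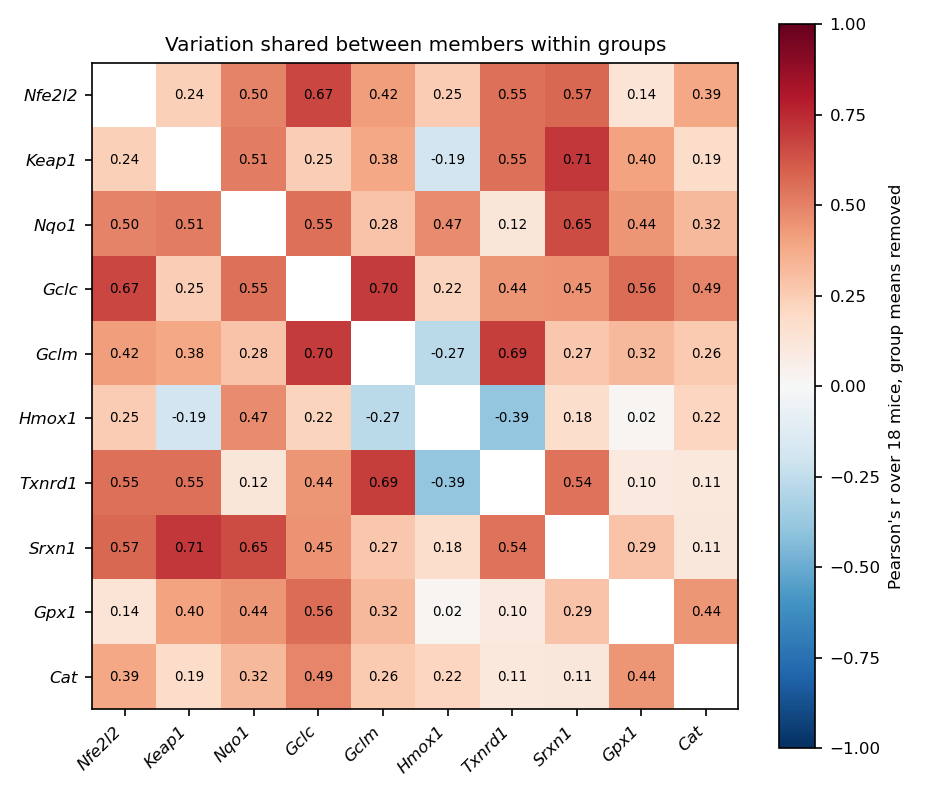
Pearson's r of log2(RPKM + 1) over 18 mice with the group means removed, for each pair of the 10 genes, from -1 (blue) to 1 (red). All pairs are red or near 0 except those of Hmox1 with Keap1, Gclm and Txnrd1, and Keap1 with Srxn1 is the highest at 0.71.

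For the 4 genes called in a pairwise comparison, the tested genes with the most similar profile over the 18 mice, group differences included, were named by Pearson's r. Nqo1 was closest to Entpd5 (r = 0.960), Aldh3a2 (0.945) and Slc22a27 (0.928). Entpd5 had group means of 32.89 RPKM in FF CD, 50.69 in LKO CD, 75.18 in FF HFD and 49.19 in LKO HFD mice, the same order as for Nqo1. Srxn1 was closest to Unc119 (0.962), Mapre3 (0.931) and the peroxisomal enzyme gene Hsd17b4 (0.930). Gclc was closest to Creg1 (0.924), Ephx1 (0.914) and Aox1 (0.910), the last 2 of which are in the detoxifying list. Hmox1 was closest to the collagen genes Col4a2 (0.930) and Col4a1 (0.911) and to Ppp1r9b (0.911). Col4a1 was at 2.102 RPKM in FF CD and 6.097 in FF HFD mice, and at 2.454 and 4.449 in LKO mice on CD and HFD.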

How the data were processed

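Liver RNA of 18 mice was sequenced, and the authors deposited 1 table of RPKM per mouse. The submitters' processing notes name HISAT2 2.0.4, Partek and mm10. The gene annotation, the counting and its use of strand are not given in the sources used here. The extraction label names both a small RNA kit and a standard RNA-seq protocol. The RPKM values were used as deposited and were not rescaled; their sums ranged from 312292 to 397753 between mice. Since RPKM are not counts, no count model was fitted. Depth was estimated from the steps between low RPKM of single-exon genes and reads per gene from the longest GENCODE transcript, and both carry the error of that estimate.

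The filter kept genes whose RPKM averaged 0.5 or more over all mice. Their log2(RPKM + 1) entered a limma fit (version 3.58.1, R 4.3.3) with 1 coefficient per group and variances moderated along a trend, and p-values were two-sided and adjusted by Benjamini-Hochberg. Single genes were also compared by exact permutation of the mean log2 value. Intervals are at 95%. From each pathway list, up to 3 called genes with the largest difference in any pairwise comparison are named, and for each of the 10 genes called in a pairwise comparison the 3 tested genes with the highest r. One gene of the lists is not reported here by name. The genes and lists were chosen with earlier results of these data known. Scripts were tested on simulated data. The markers of hepatocytes, macrophages, endothelial cells, stellate cells and fibroblasts are given above; of leukocyte markers 1 of 4 tested was higher on HFD in each genotype, and of 3 cholangiocyte and 6 erythroid markers tested limma called 0 in any comparison (1 and 0 at an unadjusted p under 0.05). Alternatives were a pseudocount of 0.1, no filter or one at a mean RPKM of 1, rescaling, quantile normalization, centring each mouse on its median, a fit of the compared groups alone, no sharing of the variance between genes, a replicate block and leaving out each mouse. Python 3.11.15, numpy 2.4.6, pandas 2.3.3, scipy 1.17.1 and matplotlib 3.10.9 were used.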

Additional observations from a re-analysis of the deposited data

Results flagged for a closer look

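For Nqo1, the effect of HFD differed between genotypes by a test of the difference itself, at -1.574 on the log2 scale for LKO minus FF mice (SE 0.246, limma adjusted p = 0.00156). For Srxn1, it differed by -0.973 (SE 0.224, limma adjusted p = 0.0243). Of the 40 groups of mice examined for a single mouse far from the others, 4 groups for each of the 10 genes, 0 were flagged. With 4 or 5 mice per group such a check can miss one, so it does not show that no mouse stood apart. For example, Gpx1 was at 1029 RPKM in FF HFD mouse 1 and at 624 to 779 RPKM in the other FF HFD mice.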

How the results depend on the processing

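Nqo1 kept its 3 calls (FF HFD versus FF CD, LKO HFD versus FF HFD, and the difference of the diet effects) and Srxn1, Gclc and Hmox1 their calls in FF mice under every alternative run. In FF mice, 4 of the 10 genes were called in most settings, 4 to 5 on leaving out a mouse, and 6 after rescaling (with Nfe2l2 and Gpx1) or quantile normalization (with Gpx1 and Cat). In LKO mice the count of 1 (Hmox1) became 0 with no filter, after rescaling, quantile normalization or centring on the median, with no sharing of the variance and with the replicate block, and was 0 to 1 on leaving out a mouse. The difference of the diet effects was called for 1 gene (Nqo1) with no filter or no sharing of the variance, for 3 after rescaling (with Gclc), and for 1 to 3 on leaving out a mouse. The cause of these changes was not tested. The replicate numbers are not stated to mark a litter or day, so they were not taken to pair mice. Mice of different groups that carry the same number correlated at -0.173 to 0.332 in their deviations from the group means. Mice with different numbers were not set beside them, so this range does not show whether the numbers pair mice. With the replicate block the counts were 4 in FF mice, 0 in LKO mice, 0 between genotypes on CD, 1 on HFD and 2 for the difference of the diet effects.

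The direction turned only for values that were not called. After centring, Keap1 was at -0.004 and Cat at -0.014 in FF mice on HFD, and Gpx1 at -0.034 in LKO mice on HFD. Keap1 in LKO mice on HFD was at 0.001 after rescaling and 0.009 with the replicate block, and Txnrd1 between genotypes on CD at -0.001 after quantile normalization. On leaving out a mouse, the difference on HFD ranged from -0.001 to 0.173 for Gclm and -0.039 to 0.204 for Txnrd1 in FF mice. In LKO mice it ranged from -0.137 to 0.012 for Nfe2l2, -0.082 to 0.046 for Keap1, -0.159 to 0.143 for Nqo1 and -0.014 to 0.126 for Gpx1. Between genotypes it ranged from -0.132 to 0.134 for Hmox1 and -0.105 to 0.138 for Txnrd1 on CD, and from -0.109 to 0.029 for Gclm and -0.167 to 0.014 for Gpx1 on HFD. The difference of the diet effects of Hmox1 ranged from -0.301 to 0.026. The number of pairs of genes past the threshold was 0 to 2 on leaving out a mouse.

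Of the other pathway genes named, several calls were close to the threshold: Glrx, Oplah and Blvrb in FF mice held in 12, 16 and 12 of 27 alternatives, Txnip in LKO mice in 8, Me1 and Dio1 between genotypes on HFD in 16 and 8, and the differences of the diet effects of Glrx, Ephx1 and Aox1 in 11, 12 and 10 of 26. Nqo1 and Hmox1 rest on the fewest reads, and protein levels, enzyme activity and NRF2 binding were not measured here.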
